A study of Mus musculus with 10 samples.

Results

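The 10 libraries of the series were divided by their own level of Tnf, the gene of tumour necrosis factor. The 5 libraries with 1300 TPM of Tnf or more (TPM is transcript abundance corrected for the length of the gene, with the same sum in each library) were called Tnf-high, and the 5 below that value Tnf-low. The split is not a label of the study. It was chosen from measured values, so the Tnf levels themselves are a description, and every test on another gene asks whether that gene went with Tnf across these 10 libraries. The Tnf-high libraries were WT 2, WT 4, S452A 1, S452A 3 and S452A 4. The Tnf-low libraries were WT 1, WT 3, WT 5, S452A 2 and S452A 5.

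All 10 mice were 8 weeks old when MC38 cells, which derive from a colon carcinoma of a mouse, were injected, and tumours were taken after 18 days. The mice carried either wild-type Pep, the protein tyrosine phosphatase encoded by Ptpn22 (WT, 5 mice), or Pep with the S452A change (S452A, 5 mice). In both genotypes the tumours were digested with collagenase and the cells sorted as CD8+ T cells, and each library is labelled as 1 mouse. The Tnf-high libraries held 2 WT and 3 S452A mice and the Tnf-low libraries 3 WT and 2 S452A mice. Genotype was therefore a term of every fit below unless stated. Ranges, overlap between the sets, list means by library, summed markers and Pearson's r were taken without regard to genotype.

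The labelled cell type was at odds with the transcripts in both sets of libraries. Cd8a, which encodes part of CD8 itself, was at 0.27, 7.73, 0.64, 14.5 and 3.42 TPM in the Tnf-high libraries in the order given above, and at 6.37, 14.4, 2.23, 4.63 and 9.32 TPM in the Tnf-low libraries. Lyz2, the lysozyme gene of macrophages and monocytes, was between 1185 and 3155 TPM over all 10, and Csf1r, whose product receives the macrophage growth factor CSF1, between 131 and 192 TPM. The summed TPM of 20 macrophage markers was 17165 to 20893 in the Tnf-high and 16338 to 20014 in the Tnf-low libraries. That of 20 T cell markers was 35.5 to 256 and 51.1 to 222. No macrophage marker was listed at 0 in any library, and at most 1 T cell marker was (in WT 2 and in S452A 1). The Tnf-high and Tnf-low ranges overlapped for both marker sets. In bulk RNA, fewer cells of a type and less RNA per cell cannot be told apart.

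Tumour necrosis factor is an inflammatory cytokine that activated macrophages make in large amounts. It is made as a membrane protein, is shed by the protease ADAM17, and acts through a pair of receptors that switch on NF-kB. NF-kB factors in turn induce Tnf, many cytokines and chemokines, and their own inhibitors, while RNA-binding proteins such as tristetraprolin (gene Zfp36) shorten the life of the Tnf mRNA.

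Kappa-B elements are the DNA sites that NF-kB binds. To show where their letters occur at genes described below, the 120 bases directly before the annotated start are printed for Tnf, for the neighbouring chemokine genes Cxcl1, Cxcl2 and Cxcl3, for Nfkbia and Tnip1, which encode inhibitors of NF-kB, and for Nlrp3, of the 7 genes with the smallest p. Sequences are from RefSeq (GRCm38.p6), 5′ to 3′, with matches to the 10-base kappa-B motif on either strand in capitals (overlapping matches are joined). The genes and the window were picked after the motif positions had been seen.
Tnf, chr17:35202008-35202127, minus strand: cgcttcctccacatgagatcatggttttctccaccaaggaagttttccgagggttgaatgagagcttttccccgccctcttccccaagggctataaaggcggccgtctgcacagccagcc
Cxcl1, chr5:90891125-90891244, plus strand: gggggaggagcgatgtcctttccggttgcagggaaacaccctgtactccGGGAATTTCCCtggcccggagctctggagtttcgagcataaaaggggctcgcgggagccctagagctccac
Cxcl2, chr5:90903779-90903898, plus strand: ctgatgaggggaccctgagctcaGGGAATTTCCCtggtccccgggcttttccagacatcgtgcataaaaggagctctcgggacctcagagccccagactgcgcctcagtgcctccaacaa
Cxcl3, chr5:90785981-90786100, plus strand: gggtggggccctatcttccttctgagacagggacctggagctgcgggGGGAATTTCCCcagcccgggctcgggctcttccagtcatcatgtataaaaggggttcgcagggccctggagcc
Nfkbia, chr12:55492648-55492767, minus strand: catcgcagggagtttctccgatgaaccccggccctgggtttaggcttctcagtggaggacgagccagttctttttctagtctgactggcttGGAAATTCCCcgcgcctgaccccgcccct
Tnip1, chr11:54962941-54963060, minus strand: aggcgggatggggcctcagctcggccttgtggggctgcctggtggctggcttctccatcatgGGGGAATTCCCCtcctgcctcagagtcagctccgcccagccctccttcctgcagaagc
Nlrp3, chr11:59542566-59542685, plus strand: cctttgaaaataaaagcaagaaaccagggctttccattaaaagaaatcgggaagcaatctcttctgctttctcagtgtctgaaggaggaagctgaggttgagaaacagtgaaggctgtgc

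The capitals of Cxcl1, Cxcl2 and Cxcl3 were the same 11 letters in all 3 promoters. For Tnf and Nlrp3 these letters hold no match, nor do those before a second annotated start of Nlrp3, which says only that the motif is not spelled out in these windows. Over the 250 bases before the start, the kappa-B motif was present in 984 of the 9372 tested genes that had a RefSeq promoter (10.5%) and in 8.23% of all 27025 genes of that table. It was present in 5 of 8 NF-kB and I-kB genes, 11 of 26 NF-kB target and feedback genes, 7 of 18 cytokines, 4 of 7 CXC chemokines, 1 of 8 CC chemokines, 5 of 22 immediate early genes, 5 of 32 cell cycle genes and 1 of 28 ribosomal protein genes that could be matched. The AP-1 motif TGANTCA was present in 5.7% of the tested genes, 6 of the 26 NF-kB targets and 5 of the 18 cytokines. A match is a description of the letters and not a measured binding site.

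Tnf was among the more abundant transcripts in every library. In the Tnf-high libraries it was at 1535 TPM in WT 2, 1480 in WT 4, 1703 in S452A 1, 1866 in S452A 3 and 2378 in S452A 4. In the Tnf-low libraries it was at 629 TPM in WT 1, 1022 in WT 3, 1149 in WT 5, 958 in S452A 2 and 975 in S452A 5. The means were 1792 ± 360 TPM and 946 ± 193 TPM (SD, n = 5 each), a ratio of 1.89, and the highest library held 3.78 times the lowest. WT 4 at 1480 TPM lay just inside the split and WT 5 at 1149 TPM just outside it, a gap of 331 TPM. Both genotypes were on both sides of the split, as the plot of Tnf by library shows.

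**Figure D1:**
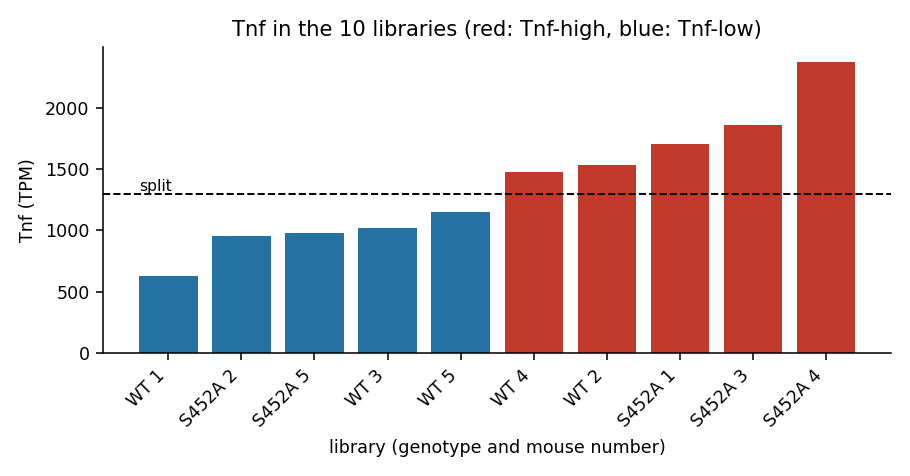
Tnf in TPM (vertical axis, from 0) in each of the 10 libraries, in ascending order. Red bars are the Tnf-high and blue bars the Tnf-low libraries, and the dashed line is the split at 1300 TPM, which falls in the gap between WT 5 (1149 TPM) and WT 4 (1480 TPM).

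Next, the other genes were asked whether they went with the split. Of 13929 genes tested, 0 (0%) passed a Benjamini-Hochberg adjusted p under 0.05 with limma, and the lowest adjusted p was 0.0649. At an adjusted p under 0.1 there were 7 genes (0.0503%), all higher in the Tnf-high libraries. An unadjusted p under 0.05 was found for 1724 genes, of which 1067 (7.66%) were higher and 657 (4.72%) lower. The 5 Tnf-high libraries all lay above the 5 Tnf-low libraries for 340 genes (2.44%) and all below them for 144 (1.03%). A difference above 0 was seen for 48.5% of all genes, and the median difference was -0.01 on the log2 scale. For 84.8% of genes the 95% interval of the difference lay within 1 log2 unit on either side of 0. The count of calls depended on single libraries. Without S452A 1, 49 genes passed as higher and 4 as lower. Without WT 5, 1 gene passed, and leaving out any other library gave none. With log2 Tnf as a continuous term in place of the split, 70 genes passed as rising with Tnf (0.503%) and 1 as falling (0.00718%). All 71 had an unadjusted p under 0.05 in the split, which was cut from the same Tnf values.

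Of the 7 genes with an adjusted p of 0.0649, 6 encode surface proteins, an enzyme, an inflammasome sensor and an amino acid transporter, and the other is a predicted gene. Tnfrsf1b, the gene of TNF receptor 2, was at 367, 417, 360, 543 and 515 TPM in the Tnf-high libraries (WT 2, WT 4, S452A 1, S452A 3 and S452A 4) and at 208, 246, 250, 228 and 258 TPM in the Tnf-low libraries (WT 1, WT 3, WT 5, S452A 2 and S452A 5). The same order of libraries is used below. Every Tnf-high library lay above every Tnf-low library, and the difference was 0.84 ± 0.13 on the log2 scale (SE, 1.79-fold). Nlrp3, which forms the inflammasome that activates interleukin 1 beta, was at 150, 172, 159, 217 and 210 TPM against 95.1, 104, 112, 90.6 and 102 TPM. The ranges did not overlap and the difference was 0.82 ± 0.12. Both belong to a panel of 24 genes around Tnf whose values are given whether or not they differed.

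Pdpn, the gene of podoplanin, a surface glycoprotein that binds the platelet receptor CLEC-2, had the smallest p of all genes. It was at 229, 270, 310, 361 and 400 TPM in the Tnf-high and 141, 136, 172, 171 and 168 TPM in the Tnf-low libraries, a difference of 0.90 ± 0.11 (1.87-fold). Arg1, the arginase that splits arginine in alternatively activated macrophages, was at 341, 461, 373, 429 and 435 TPM against 186, 217, 212, 273 and 212 TPM, a difference of 0.86 ± 0.12. Both genes separated the libraries completely. Slc7a8, a light chain of an amino acid transporter, was at 64.2 to 84.7 TPM against 37.2 to 48.8 TPM (0.71 ± 0.11), and Cd44, a receptor for hyaluronan, at 169 to 272 TPM against 120 to 153 TPM (0.62 ± 0.09).

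The seventh, Gm16181, has only a predicted status and appears here as 1 of these 7. It was at 5.78, 4.82, 4.19, 4.08 and 8.73 TPM in the Tnf-high and 0.78, 1.5, 0.10, 0.62 and 0.26 TPM in the Tnf-low libraries (2.02 ± 0.28). The filter asked for 1 TPM in 5 libraries, and of the Tnf-low libraries only WT 3 reached 1 TPM. The entry of Gm16181 into the test therefore depended on the set where it was higher, and its p is no separate support. It lies at chr17:35220834-35224134 on the plus strand (GRCm38), 18.8 kb from Tnf and inside the span of Nfkbil1 on the minus strand. The libraries were made with a directional kit, but whether counting used strand is not given in the sources used here, so reads of Gm16181 and Nfkbil1 may not have been told apart. Nfkbil1 itself was at 15.6 to 24.3 TPM over the 10 libraries with a difference of 0.15 ± 0.14.

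**Figure D2:**
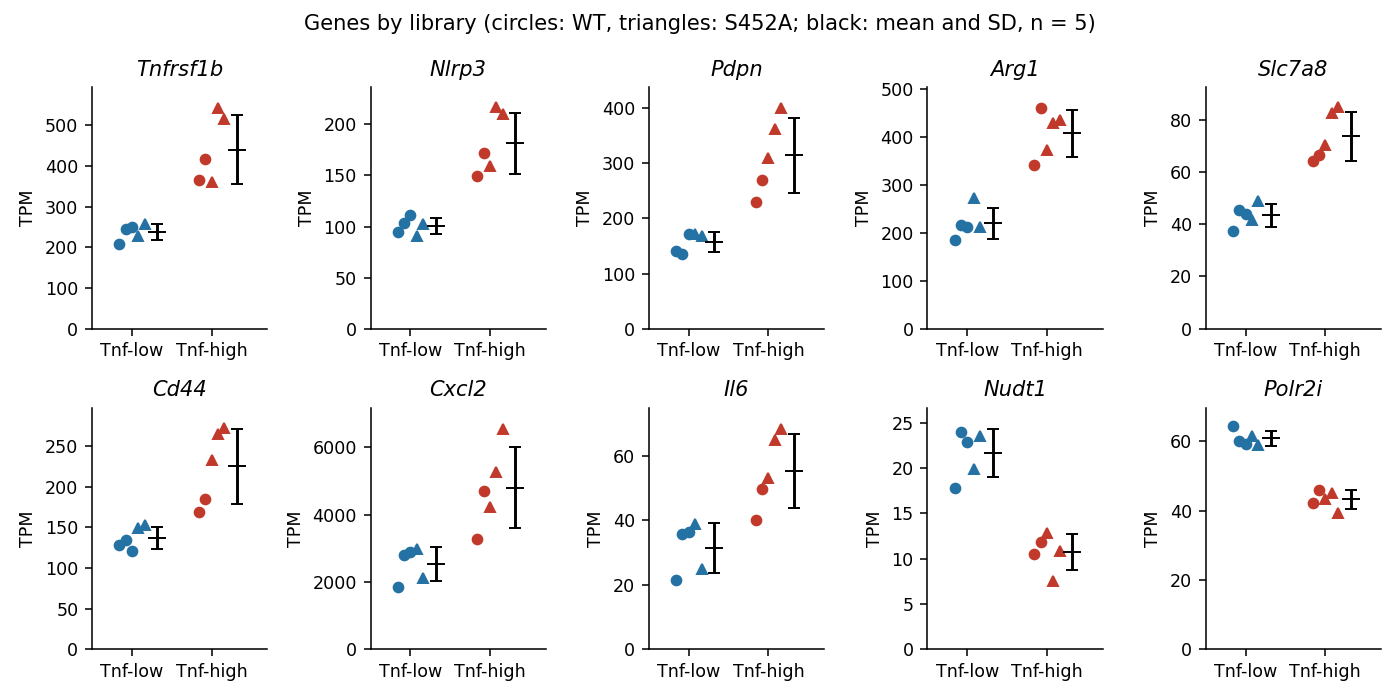
TPM (vertical axes, from 0, scaled per gene) of 10 genes in the Tnf-low (blue) and Tnf-high (red) libraries, with circles for WT and triangles for S452A mice. Black bars are the mean and SD of 5 libraries, and none of the 10 genes overlaps between the sets, with Nudt1 and Polr2i lower in the Tnf-high libraries. The separation follows from the choice of genes. Cxcl2 and Il6 are among the 6 of 23 tested panel genes without overlap, and the others are genes of smallest p.

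The 3 genes next in order of p with a higher level in the Tnf-high libraries were Fam129b, Nfya, a subunit of the transcription factor NF-Y, and F13a1, the A chain of coagulation factor XIII, which macrophages also make. Their differences were 0.64 ± 0.10, 0.56 ± 0.10 and 1.12 ± 0.20, with adjusted p from 0.111 to 0.137. F13a1 was at 26.4, 43.2, 41.4, 30.9 and 37.6 TPM against 12.7, 18.6, 15.5, 21.3 and 11.6 TPM. The tenth was Adam8, a membrane protease of myeloid cells, at 210 to 282 TPM against 143 to 175 TPM (0.59 ± 0.10).

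Apart from Gm16181, the genes near Tnf on chromosome 17 that are described here overlapped between the sets. Lta, the lymphotoxin alpha gene whose nearest end lies 1.16 kb from Tnf, was at 0.69 to 1.79 TPM in the Tnf-high and 0.69 to 1.68 TPM in the Tnf-low libraries and was under the filter for testing. Ltb, the lymphotoxin beta gene 3.06 kb away, was at 3.30, 7.98, 4.48, 19.1 and 3.96 TPM against 2.34, 9.64, 4.39, 4.95 and 13.2 TPM, a difference of -0.03 ± 0.47. The sets overlapped. Lst1 and Aif1, a pair of genes that macrophages express, were at 136 to 336 and 266 to 371 TPM in the Tnf-high against 235 to 341 and 327 to 485 TPM in the Tnf-low libraries, with differences of -0.32 ± 0.22 and -0.27 ± 0.14. Bag6 and Prrc2a differed by 0.22 ± 0.14 and 0.19 ± 0.13. Of 8 tested members of the list of genes beside Tnf, 0 had an unadjusted p under 0.05, and the median was 0.08. Over all genes 7.66% were higher and 4.72% lower at that p.

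The 2 TNF receptor genes are given side by side. Tnfrsf1b had the difference of 0.84 given above. Tnfrsf1a, the gene of the widely expressed TNF receptor 1, was at 42.8, 43.9, 41.4, 38.1 and 33.3 TPM against 38.2, 44.3, 38.8, 33.5 and 42.9 TPM, a difference of 0.04 ± 0.11 with overlapping libraries. Whether the receptors differed from each other was not tested. Adam17, which sheds TNF from the membrane, was at 65.2 to 94.6 TPM against 56.6 to 70.7 TPM (0.30 ± 0.11, unadjusted p = 0.0196, adjusted p = 0.302). Tab2 and Ikbkg, which serve the signal from the receptors to NF-kB, differed by 0.34 ± 0.10 and 0.39 ± 0.13, and the Tab2 libraries did not overlap. Of 25 genes for TNF receptors, shedding and the receptor complex, 7 had an unadjusted p under 0.05 and a higher level, 0 a lower one, and the median was 0.10. The shares over all genes were 7.66% and 4.72%.

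Among 20 genes for proteins that act on AU-rich mRNAs such as that of Tnf, 5 had an unadjusted p under 0.05 with a higher level. A lower level at that p was found for 1 (median of the list 0.17). Over all genes 7.66% were higher and 4.72% lower at that p. Mapkapk2, the kinase that inactivates tristetraprolin, was at 140, 179, 161, 203 and 206 TPM against 101, 124, 128, 108 and 132 TPM, without overlap (0.54 ± 0.12, adjusted p = 0.154). Zc3h12a, the gene of the endonuclease regnase-1, was at 72.0 to 109 TPM against 53.1 to 76.8 TPM (0.55 ± 0.14). Cnot1 and Rc3h1, a scaffold of the deadenylase complex and the gene of roquin-1, differed by 0.45 ± 0.13 and 0.36 ± 0.16. Zfp36 was at 553, 569, 402, 653 and 587 TPM against 457, 434, 430, 370 and 640 TPM, so its libraries overlapped (0.25 ± 0.16). Dusp1, a phosphatase that shuts off p38 and JNK signalling, was at 561 to 969 TPM against 575 to 868 TPM (0.28 ± 0.16).

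All 11 NF-kB and I-kB genes had a difference above 0, against 48.5% of all genes. An unadjusted p under 0.05 was found for 9 of them, against 7.66% of all genes with a higher level. The median of the 11 genes was 0.41, with an interquartile range of 0.32 to 0.45. Nfkbia, which encodes the inhibitor I-kB alpha and carries the promoter motif printed above, was at 1552, 1651, 1398, 2075 and 2062 TPM against 1184, 1251, 1167, 1280 and 1479 TPM (0.41 ± 0.12). S452A 1 lay below S452A 5, and the other Tnf-high libraries lay above all Tnf-low libraries. Nfkbiz and Nfkb2, an atypical I-kB protein and the precursor of an NF-kB subunit, did not overlap between the sets (0.50 ± 0.12 and 0.48 ± 0.12). Nfkb1 and Relb, which encode other NF-kB subunits, differed by 0.45 ± 0.13 and 0.46 ± 0.13, with overlap.

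Of 37 NF-kB target and feedback genes, 35 had a difference above 0, 28 an unadjusted p under 0.05 and 15 no overlap between the sets, all 15 higher. Of all genes, 48.5% had a difference above 0, 7.66% were higher at that p and 2.44% were higher without overlap. The median of the 37 genes was 0.49. Tnfaip2, a gene induced by TNF, was at 344, 395, 389, 468 and 647 TPM against 147, 206, 249.4, 268 and 178 TPM, a difference of 1.03 ± 0.19. Tnip1, whose product binds the ubiquitin-editing enzyme TNFAIP3, was at 159, 142, 121, 170 and 177 TPM against 103, 88.0, 97.3, 91.4 and 108 TPM (0.63 ± 0.12). Tnfaip3 was at 350 to 607 TPM against 237 to 336 TPM (0.60 ± 0.14), and Icam1, a ligand of leukocyte integrins, at 97.9 to 150 TPM against 69.8 to 97.6 TPM (0.62 ± 0.13). Neither overlapped, although the nearest Icam1 values, in S452A 1 and WT 5, were 97.9 and 97.6 TPM. Ptgs2, the gene of cyclooxygenase 2, was at 617 to 1252 TPM against 472 to 593 TPM (0.75 ± 0.17). The members with a difference below 0 were Vcam1 (-0.16) and Tnfaip8 (-0.05). The mean of the list in each library was 7.36 to 7.87 in the Tnf-high and 6.93 to 7.19 in the Tnf-low libraries as log2(TPM + 1).

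Cytokine genes showed the same direction. Of 27, 26 had a difference above 0, 15 an unadjusted p under 0.05, all higher, and 5 no overlap, with a median of 0.50. The same shares of all genes were 48.5%, 7.66% and 2.44%. Il6 was at 40.0, 49.7, 53.1, 64.8 and 68.3 TPM against 21.5, 35.8, 36.4, 38.7 and 24.8 TPM (0.75 ± 0.19). Its lowest Tnf-high library, WT 2, lay just above its highest Tnf-low library, S452A 2. Il1a was at 242, 297, 482, 400 and 511 TPM against 129, 171, 242, 268 and 157 TPM (0.89 ± 0.20), with WT 2 below S452A 2. Il1b was by far the more abundant, at 2991 to 5487 TPM against 2777 to 3404 TPM, and its difference was 0.36 ± 0.13. Il10, which restrains macrophage activation, was at 134 to 289 TPM against 112 to 160 TPM (0.65 ± 0.21). Csf3, the granulocyte growth factor, was at 4.88 to 12.2 TPM against 1.77 to 5.37 TPM (1.23 ± 0.30), and Areg, an epidermal growth factor receptor ligand, at 21.8 to 33.7 TPM against 12.9 to 19.8 TPM (0.69 ± 0.16). The member with a difference below 0 was Il12a (-0.51), a subunit of interleukin 12, at 0 to 3.44 TPM.

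The neutrophil-attracting CXC chemokine genes Cxcl1, Cxcl2 and Cxcl3 were higher in every Tnf-high than in any Tnf-low library. Whether this went with their shared promoter letters was not tested. Cxcl2 was at 3278, 4706, 4238, 5264 and 6528 TPM against 1852, 2811, 2895, 2970 and 2113 TPM (0.87 ± 0.19). Cxcl1 was at 1055, 1323, 1200, 1337 and 1489 TPM against 582, 812, 648, 1007 and 387 TPM (0.95 ± 0.22). Cxcl3 was at 164, 507, 277, 211 and 405 TPM against 59.0, 160, 89.4, 154 and 63.5 TPM (1.56 ± 0.37). The adjusted p of these 3 was 0.149 to 0.162. Cxcl10, an interferon-induced T cell attractant, was at 1265 to 1987 TPM against 1063 to 1674 TPM with a difference of 0.14 ± 0.16, and Cxcl5 differed by 0.52 ± 0.31. Over all 10 tested CXC chemokines 3 had an unadjusted p under 0.05, all higher, against 7.66% of all genes, and the median was 0.15.

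Of 12 tested CC chemokines, 11 had a difference above 0 and 7 an unadjusted p under 0.05, all higher (median 0.49). The same shares of all genes were 48.5% and 7.66%. Ccl3 and Ccl4, a pair of inflammatory chemokines, were at 1701 to 2745 and 1974 to 3518 TPM against 1093 to 2029 and 1242 to 2338 TPM, with differences of 0.51 ± 0.19 and 0.46 ± 0.21. WT 5, a Tnf-low library, held more of both than several Tnf-high libraries. Ccl5 was at 648, 707, 697, 1150 and 1256 TPM against 277, 597, 561, 535 and 506 TPM, without overlap (0.76 ± 0.23). Ccl6 and Ccl9, a pair of related myeloid chemokines, differed by 0.75 ± 0.17 and 0.60 ± 0.14, and Ccl7, a monocyte attractant, by 0.47 ± 0.17.

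**Figure D3:**
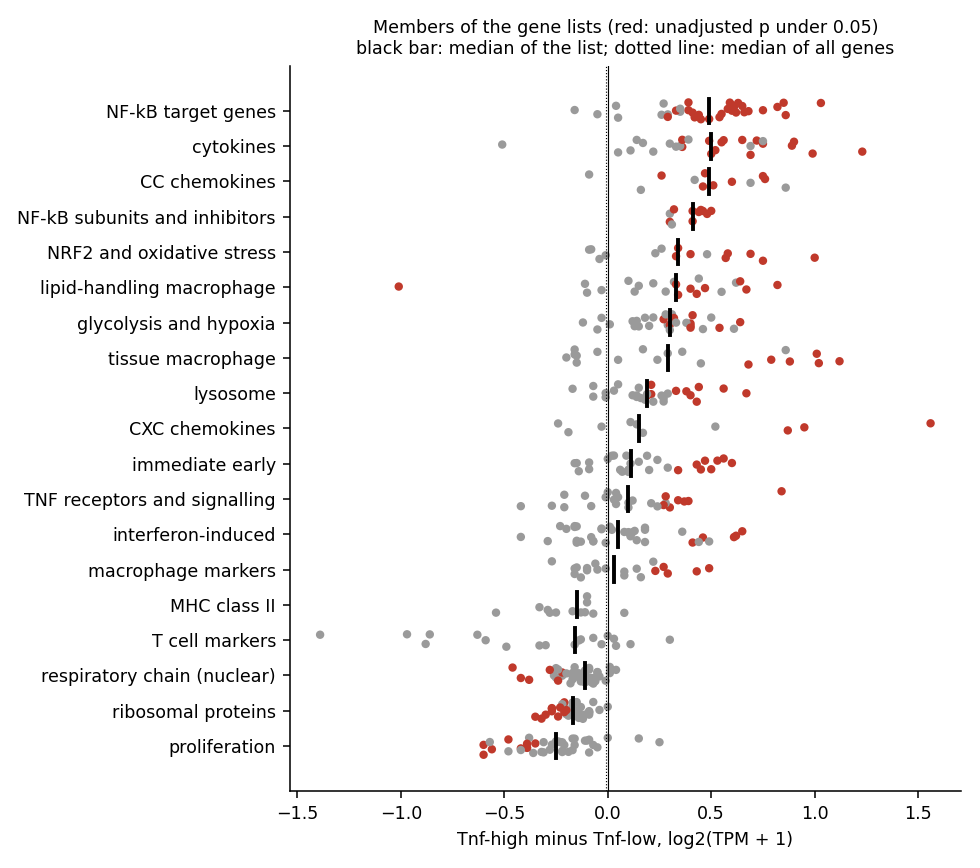
Tnf-high minus Tnf-low difference on the log2(TPM + 1) scale (horizontal axis) for each tested member of 19 gene lists, 1 point per gene, red where the unadjusted p was under 0.05. The black bar is the median of each list, from 0.49 for NF-kB targets and 0.50 for cytokines to -0.25 for cell cycle genes, and the dotted line is the median of all genes, -0.01.

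Other gene lists of activated macrophages had medians between 0.07 and 0.13. Of 27 immediate early genes, 21 had a difference above 0 and 8 an unadjusted p under 0.05, all higher (median 0.11). The same shares of all genes were 48.5% and 7.66%. Ppp1r15a, a stress-induced phosphatase subunit, was at 296 to 439 TPM against 220 to 301 TPM (0.47 ± 0.12), and Egr1 at 28.4 to 45.4 TPM against 21 to 25.7 TPM (0.50 ± 0.14). Csrnp1 and Btg1 differed by 0.56 ± 0.17 and 0.45 ± 0.14. Of 22 Toll-like receptor pathway genes, 3 had an unadjusted p under 0.05 with a higher level and 1 with a lower one (median 0.13), against 7.66% and 4.72% of all genes. They were led by Cd14, the lipopolysaccharide coreceptor, at 2142, 2094, 2192, 3033 and 2853 TPM against 1859, 1504, 1670, 1705 and 1737 TPM (0.49 ± 0.11). Irak2 and Ticam2, which encode signalling adaptors, differed by 0.46 ± 0.17 and 0.40 ± 0.16, and Lbp, at 0.58 to 6.46 TPM, by -0.87 ± 0.36. Among 13 inflammasome genes the median was 0.07, and Mefv, the pyrin gene, differed by 0.51 ± 0.17.

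Antioxidant, lysosomal and lipid-handling genes had medians from 0.19 to 0.34. Of 15 NRF2 and oxidative stress genes, 8 had an unadjusted p under 0.05, all higher (median 0.34), against 7.66% of all genes. Txnrd1, a thioredoxin reductase, was at 121, 141, 107, 154 and 171 TPM against 63.8, 89.8, 102, 86.5 and 81.3 TPM, without overlap (0.69 ± 0.16). Slc7a11, the cystine transporter, was at 22.99 to 39.2 TPM against 8.54 to 26.3 TPM (1.0 ± 0.28), and Gsr, glutathione reductase, differed by 0.58 ± 0.17. Ftl1, the ferritin light chain, was at 5662 to 7453 TPM against 4228 to 5205 TPM (0.40 ± 0.10), and 11 other annotated genes match its sequence, so reads may have been shared. Of 29 lysosomal genes, 10 had an unadjusted p under 0.05, all higher, and 6 did not overlap (median 0.19). The same shares of all genes were 7.66% and 2.44%. Atp6v1a, a subunit of the proton pump, was at 123, 127, 126, 171 and 160 TPM against 91.0, 89.0, 93.4, 85.0 and 105 TPM (0.56 ± 0.11). Ctsl and Ctsd, the genes of cathepsins L and D, differed by 0.67 ± 0.14 and 0.43 ± 0.11, and Psap, the precursor of saposins, by 0.44 ± 0.11.

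Of 21 lipid-associated macrophage genes, 5 of which are also in the lysosomal list, 8 had an unadjusted p under 0.05 with a higher level. A lower level at that p was found for 1, Apoc1 (-1.01), which did not exceed 3.12 TPM. Over all genes 7.66% were higher and 4.72% lower at that p. Abca1, which exports cholesterol, was at 45.4 to 62.8 TPM against 24.1 to 38.0 TPM (0.64 ± 0.14), and Ctsb differed by 0.40 ± 0.11. Apoe, the most abundant member at 8290 to 12719 TPM, differed by -0.03. Of 19 resident and scavenging macrophage genes, 6 had an unadjusted p under 0.05, all higher (median 0.29), against 7.66% of all genes. Pf4, a platelet and macrophage chemokine, was at 384, 659, 393, 283 and 535 TPM against 229, 240, 274, 274 and 257 TPM (0.79 ± 0.19). Cbr2 and Folr2, markers of tissue-resident macrophages, differed by 1.02 ± 0.33 and 0.68 ± 0.22 with overlapping libraries. C1qa, C1qb and C1qc of the same list differed by -0.16, -0.15 and -0.16. Of 29 glycolysis and hypoxia genes, 26 had a difference above 0, against 48.5% of all genes, and 9 an unadjusted p under 0.05 (median 0.30). Hilpda, a hypoxia-induced lipid droplet gene, was at 435 to 769 TPM against 289 to 467 TPM (0.64 ± 0.12). Pfkp, Slc2a1 and Aldoa, which serve glycolysis, differed by 0.54 ± 0.14, 0.41 ± 0.14 and 0.40 ± 0.14.

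The genes of smallest p with a lower level in the Tnf-high libraries, leaving out predicted genes, were Nudt1 and Polr2i. Nudt1, which removes oxidized nucleotides, was at 10.5, 11.8, 12.8, 7.59 and 10.9 TPM against 17.8, 24.0, 22.8, 19.95 and 23.6 TPM (-0.95 ± 0.16, adjusted p = 0.135). Polr2i, a small subunit of RNA polymerase II, was at 42.2, 46.0, 43.4, 45.2 and 39.3 TPM against 64.5, 60.1, 59.2, 61.6 and 59.1 TPM (-0.48 ± 0.09, adjusted p = 0.139). Both separated the libraries completely. The next by p were Rpl18-ps1 (-0.56), a pseudogene with near-identical copies, Cep44 (-0.89) and Lockd (-1.06), a long non-coding RNA beside Cdkn1b. Ndufa5, Lsm6, Lyrm9, Krtcap2 and Mrpl35 had differences of -0.67, -0.73, -1.56, -0.56 and -0.52. All 10 were lower in every Tnf-high library than in any Tnf-low library.

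The list medians on this side were small. Over all genes 4.72% were lower with an unadjusted p under 0.05, and 1.03% were lower without overlap. All 40 ribosomal protein genes had a difference of 0 or below at 2 decimals, 11 had an unadjusted p under 0.05, and the median was -0.17. Rpl13 and Rpl3 were at 344 to 407 and 317 to 401 TPM against 395 to 518 and 385 to 486 TPM (-0.32 ± 0.08 and -0.27 ± 0.09). Rpl37 did not overlap (-0.35 ± 0.10), and Rps6, whose sequence 10 other annotated genes match, differed by -0.27 ± 0.09. Of 40 cell cycle genes, 8 had an unadjusted p under 0.05, all lower (median -0.25). Tyms, thymidylate synthase, was at 20.9, 28.8, 41.8, 27.0 and 30.8 TPM against 42.2, 39.2, 45.4, 39.0 and 45.8 TPM (-0.56 ± 0.15). Hmgb2, whose sequence 5 other annotated genes match, Ccnb2 and Kif11 differed by -0.39 ± 0.09, -0.48 ± 0.16 and -0.39 ± 0.15. Of 44 nuclear genes of the respiratory chain, 6 had an unadjusted p under 0.05, all lower (median -0.11), and Atp5h, at 91.7 to 114 TPM against 126 to 160 TPM, was the member without overlap (-0.38 ± 0.10). The 13 mitochondrially encoded genes had a median of -0.19, and 2 had an unadjusted p under 0.05. One of them, mt-Co3, matches another annotated gene almost exactly, so its reads may have been shared, and ranged from 51.5 to 2662 TPM within the Tnf-high libraries.

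Transcript length moved with the split. In 5 bins of transcript length, from shortest to longest, each of 2784 to 2787 genes, the median difference was -0.07, -0.03, -0.03, 0.01 and 0.05. The TPM-weighted mean transcript length was 778 to 825 bases in the Tnf-high and 755 to 782 bases in the Tnf-low libraries, and ribosomal protein genes with their copies took 12.7 to 15.6% against 15.1 to 16.6% of TPM. The part of length in the lower values was not tested beyond 1 alternative, chosen after seeing the data. With the trend on length removed from each library the medians were -0.13 for ribosomal protein genes, -0.25 for cell cycle genes, -0.07 for nuclear respiratory chain genes and 0.50 for NF-kB targets.

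**Figure D4:**
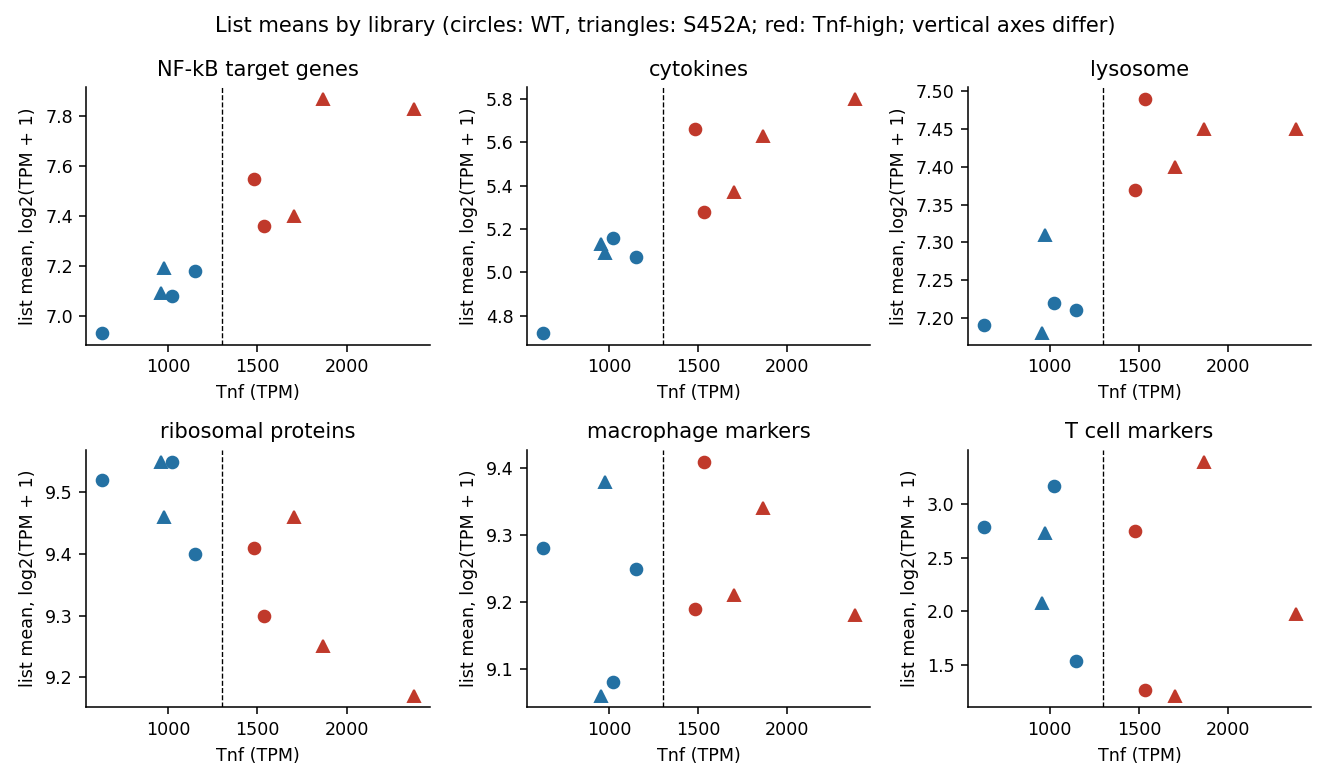
Mean log2(TPM + 1) of 6 gene lists in each library (vertical axes, which differ and do not start at 0) against Tnf in TPM (horizontal axes). Circles are WT and triangles S452A mice, red is Tnf-high, and the dashed line is the split. NF-kB targets, cytokines and lysosomal genes separate at the split, while ribosomal proteins, macrophage markers and T cell markers overlap.

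The summed markers of macrophages, T cells, neutrophils and fibroblasts overlapped between the sets. For epithelial and tumour cells, only 2 of 13 listed markers passed the filter, Lgals4 and Cdh1, both at low values. Their sum did not overlap, at 1.87 to 3.53 TPM in the Tnf-high and 4.37 to 7.49 TPM in the Tnf-low libraries. Taken singly, neither gene separated the sets. Lgals4 was at 1.02 to 2.35 against 2.35 to 5.56 TPM and Cdh1 at 0.47 to 2.42 against 0.93 to 2.36 TPM. The part of these cells in the differences above was not tested. Of 20 macrophage markers, 10 had a difference above 0, 5 of them with an unadjusted p under 0.05, and the median was 0.03. The same shares of all genes were 48.5% and 7.66%. Cybb, a subunit of the phagocyte oxidase, and Cd14 were the members without overlap (0.43 ± 0.10 and 0.49 ± 0.11), while Csf1r and Lyz2 differed by 0.08 and 0.14. Of 20 tested monocyte genes 9 had a difference above 0 (median -0.06). The 19 tested T cell markers had a median of -0.16 and no member with an unadjusted p under 0.05, and Cd8a differed by -0.88 ± 0.69. The 9 tested neutrophil markers had a median of 0.30 and no member with an unadjusted p under 0.05. Their summed TPM was 97.0 to 151 against 80.1 to 122, and the defining gene Ly6g was at 0 in all libraries. The 23 fibroblast and pericyte markers had a median of -0.07 and a summed TPM of 226 to 510 against 314 to 740. The part of other cell types in the differences above was not tested either. With the mean of the T cell, the fibroblast or the macrophage markers as a further term, the median of the NF-kB targets was 0.52, 0.47 and 0.48. These means come from the same libraries and cover no other cell type, and the macrophage mean includes Cd14 and Cybb. The medians therefore do not measure the part of cell types.

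Antigen presentation and interferon genes had medians from -0.15 to 0.05. Of 12 MHC class II genes, 1 had a difference above 0, 0 had an unadjusted p under 0.05, and the median was -0.15. H2-Eb1 was at 530, 760, 525, 888 and 338 TPM against 557, 854, 485, 965 and 718 TPM (-0.29 ± 0.27). The 15 MHC class I genes had a median of -0.03. Of 36 interferon-induced genes, 20 had a difference above 0 and 5 an unadjusted p under 0.05, all higher (median 0.05). The same shares of all genes were 48.5% and 7.66%. Gbp5 and Rsad2 did not overlap, at 46.9 to 70.7 and 348 to 650 TPM against 18.5 to 43.9 and 174 to 323 TPM (0.65 ± 0.19 and 0.62 ± 0.20). Oasl1 and Ifit1 differed by 0.61 ± 0.21 and 0.46 ± 0.19, whereas Mx1 and Irf7 differed by -0.16 and -0.07.

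The other lists are given by their medians. Alternative activation genes (4 of 13 with an unadjusted p under 0.05, all higher) had a median of 0.26, and dual-specificity phosphatases (2 of 11, both higher) 0.28. Of all genes, 7.66% were higher at that p. Heat shock genes had a median of 0.04, stress response genes of the endoplasmic reticulum 0.07 and sterol synthesis genes -0.11. Cytotoxic and exhaustion genes had a median of -0.11, dendritic cell markers 0.04 and endothelial markers 0.10. Fewer than 5 genes each were tested for natural killer cells (-0.38), B and plasma cells (-0.35), mast cells and basophils (-0.24) and epithelial or tumour cells (-0.58).

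The values within each genotype are a description. The 10 genes of smallest p on either side separate the libraries completely, which fixes the sign of their difference within both WT and S452A. Of the 23 tested panel genes, 17 were higher and 2 lower in the Tnf-high libraries of both genotypes, and Ltb, Tnfrsf1a, Cxcl10 and Ptpn22 had opposite signs. For the 6 panel genes without overlap the sign was fixed in the same way. Nlrp3 differed by 0.63 within WT and 1.0 within S452A, Tnfrsf1b by 0.74 and 0.94, and Arg1 by 0.95 and 0.77. The median of the NF-kB targets was 0.40 within WT and 0.62 within S452A, that of the cytokines 0.56 and 0.46, and that of the ribosomal protein genes -0.12 and -0.21. Class II genes had medians of 0.05 and -0.40. These comparisons within a genotype rest on 2 against 3 mice.

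**Figure D5:**
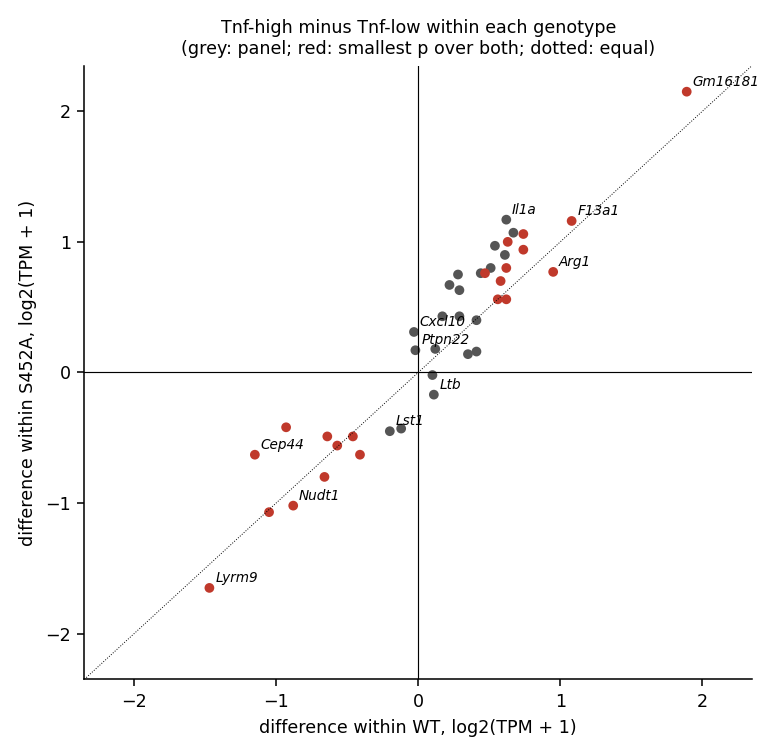
Tnf-high minus Tnf-low difference on the log2(TPM + 1) scale within WT (horizontal axis, 2 against 3 libraries) and within S452A (vertical axis, 3 against 2) for the tested panel genes (grey) and the genes of smallest p (red). The dotted line marks equal differences, and Arg1 lies at 0.95 and 0.77. The red genes separate the libraries completely, so their signs were fixed by how they were chosen.

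A test of the product of split and genotype called 1 gene (0.00718%) at an adjusted p under 0.05 with limma, and 2.81% of genes had an unadjusted p under 0.05. The gene was Gm27913, a small RNA annotated within Pvt1 at chr15:62038029-62038201. It was at 0, 0, 7.58, 10.3 and 13.6 TPM in the Tnf-high and 22.5, 22.98, 17.0, 7.76 and 13.9 TPM in the Tnf-low libraries. Both WT libraries of the Tnf-high set were listed at 0 (interaction 4.41 ± 0.43, adjusted p = 0.0136). With a pseudocount of 5 no gene was called, nor when WT 1, WT 2, WT 3, WT 4, S452A 2, S452A 3 or S452A 4 was left out. Ptpn22, the gene that carries the S452A change, was at 12, 16.7, 15.5, 16.4 and 25.2 TPM against 15.7, 19.3, 9.68, 12.9 and 20.8 TPM, a difference of 0.08 ± 0.22.

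The genes called with log2 Tnf as a continuous term overlapped with the leading genes of the split. Both fits use the same libraries and the same Tnf values, so this overlap is a description and no separate evidence. The genes called with continuous Tnf included Tnfrsf1b, Nlrp3, Pdpn and Slc7a8 of the 7 named above. Among them were 8 of the 37 NF-kB targets, 5 of the 15 NRF2 and oxidative stress genes, 5 of the 36 interferon-induced genes and 3 of the 27 cytokines. Of all genes, 0.503% passed as rising. The smallest p belonged to Sdc4, the gene of the heparan sulfate proteoglycan syndecan 4, with a slope of 1.0 ± 0.10 per log2 unit of Tnf (adjusted p = 0.00591). It was at 195, 208, 183, 207 and 315 TPM against 79.8, 138, 158, 133 and 109 TPM, so the library with the most Tnf, S452A 4, and that with the least, WT 1, stood at the ends of its range. Next were Sqstm1, which encodes an autophagy receptor (0.74 ± 0.08), and Tnfaip2 (1.12 ± 0.12), both with an adjusted p of 0.00713. Rsad2 rose by 0.81 ± 0.11 per log2 unit (adjusted p = 0.0217) and Ccl5 by 0.98 ± 0.12 (adjusted p = 0.0159). Of the 53 genes called by the split without S452A 1, 9 were also among these 71.

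The 10 genes most like Tnf over the 10 libraries were chosen by Pearson's r of log2(TPM + 1), as a description. They were Cdc42ep2 (0.980), Rab7 (0.974), Gm26809 (0.969), Sdc4 (0.966), Mmp14 (0.963), Tnfaip2 (0.962), Cybb (0.961), Clic4 (0.958), Tnfsf15 (0.957) and Cast (0.957). Cdc42ep2, an effector of the GTPase CDC42, was at 9.53, 11.2, 10.3, 12.3 and 15.1 TPM against 4.04, 6.11, 7.56, 5.95 and 5.34 TPM. Rab7, which directs traffic to lysosomes and has a near-identical pseudogene, was at 221 to 259 TPM against 170 to 206 TPM. Mmp14, a membrane matrix metalloprotease, was at 221 to 275 TPM against 154 to 220 TPM. Tnfsf15, another cytokine of the TNF family, was at 7.57 to 15.4 TPM against 1.94 to 6.35 TPM. All 10 separated at the split, which was largely fixed by choosing them for likeness to the Tnf values that set it. Each of these correlations shares the libraries and the fixed total of TPM.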

How the data were processed

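RNA of 10 libraries was measured by RNA sequencing with a directional kit, per the labels' protocols. The authors deposited TPM values of 55487 genes, with STAR 2.7.9a, RSEM 1.3.0 and GRCm38.p6 named in the submitters' processing notes. No source used here gives the annotation release or whether counting used strand, and TPM keeps no read depth, so the depth behind each value is unknown. Genes were named from GENCODE M21 for 55394 of 55487 rows. The 13929 genes with 1 TPM or more in 5 libraries (99.6% of TPM, Tnf left out) were tested on log2(TPM + 1) with limma 3.58.1 in R 4.3.3 (lmFit, eBayes with trend, two-sided), with genotype and the Tnf split as terms and Benjamini-Hochberg adjustment over all genes. Every difference is Tnf-high minus Tnf-low on that scale, which understates changes of low genes. The split, the panel and the gene lists were chosen with earlier results of these data known. Named genes are the panel, the 10 genes of smallest p in each direction without predicted genes, up to 4 genes of smallest p in each list, and the 10 most like Tnf. The values of a few genes are not reported here. Other genes named were picked after their values were seen. Sequence matches between genes were found with blastn 2.17.0. The script was tested on simulated data. Alternatives covered the pseudocount, filter, scaling, covariates, weights, genotype term, threshold and each library left out. The p-values measure the spread between these mice.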

Additional observations from a re-analysis of the deposited data

Results flagged for a closer look

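In 21 of 382 sets of 5 libraries, the highest or lowest library stood apart from the others, measured as its gap to the nearest library divided by the range of the set. Chance gives about 1 in 20. Of these, 20 are given here. WT 1, the library with the least Tnf, stood apart among the Tnf-low libraries for Ndufa5 (0.783, 110 TPM, the highest), and for Tnfsf15 (0.894), Cast (0.759), Ccl5 (0.784), Ftl1 (0.742) and Rsad2 (0.832), each the lowest. WT 5 stood apart for Lta (0.723), Hspa8 (0.812) and Bag3 (0.730), S452A 5 for Dusp1 (0.896), S452A 2 for Itgam (0.717) and Cox7b (0.727), and WT 3 for Cdh1 (0.753). Among the Tnf-high libraries, S452A 4, with the most Tnf, stood apart for Gm26809 (0.906), Sdc4 (0.766), Cnot1 (0.792) and Abca1 (0.785), each the highest. S452A 3 stood apart for Bag6 (0.776), and WT 2 for Slc7a11 (0.883) and Mmp8 (0.771).

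The Tnf-high minus Tnf-low difference of Gm27913 was called as unlike between the genotypes, with an interaction of 4.41 on the log2 scale, as given above with its TPM in each library. WT 2 and WT 4 were listed at 0, and the call was lost with a pseudocount of 5 and without some single libraries, as listed above.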

How the results depend on the processing

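The limits are 5 libraries on each side, a split taken from the same libraries, and TPM without depth. With limma, 0 genes passed as higher or lower in the 10 libraries (1724 at an unadjusted p under 0.05). The counts higher were 6 with a filter of 10 TPM, 6 without the genotype term, 6 with the macrophage marker mean as a covariate, 10 with sample quality weights (1 lower), 70 with continuous log2 Tnf (1 lower), 7 at a threshold of 0.1, and 1 without both libraries nearest the split (1 lower). Leaving out 1 library gave 0 to 49 higher and 0 to 4 lower, the highest counts without S452A 1. The interaction count of 1 was 0 with a pseudocount of 5 and 0 to 1 with 1 library left out. The mouse numbers did not pair the libraries (correlations from -0.148 to 0.0742), and the replicate block gave 0 calls and 1254 genes at an unadjusted p under 0.05. Of 5274 gene values under alternatives, 5159 kept direction and side of the threshold, 83 passed it and 32 turned direction, in 10 genes. Under the replicate block these were Ltb (0.23), Nfkbil1 (-0.02), Ptpn22 (-0.23), Ctss (0.02), Gzma (0.13), Cd79b (0.28) and Cdh1 (0.12). Ltb was at 0.08 without the genotype term, 0.10 with continuous Tnf and 0.22 with the T cell covariate, where Gzma was at 0.04. Without the libraries nearest the split Ptpn22 was at -0.07 and Cd22 at -0.00, and Cd22 was at -0.02 with continuous Tnf. With 1 library left out, Ltb ranged from -0.31 to 0.24, Tnfrsf1a from -0.01 to 0.12, Ptpn22 from -0.07 to 0.18, Klrd1 from -0.83 to 0.06, Gzma from -0.58 to 0.09, Cd79b from -0.59 to 0.17 and Cd22 from -0.11 to 0.25. The cause was not tested. Of 1035 list medians, 36 changed sign, in 12 lists, and none of these was the NF-kB, cytokine, ribosomal or cell cycle list. With 1 library left out the median of the NF-kB targets was 0.43 to 0.58, but many others moved by over 1.5 times. Among them were immediate early genes 0.04 to 0.26 (S452A 2, S452A 5), CXC chemokines 0.11 to 0.30 (highest without S452A 4) and alternative activation genes 0.18 to 0.49 (WT 5). Neutrophil markers were at 0.08 to 0.33 (lowest without WT 4), TNF receptor genes at 0.03 to 0.16 (S452A 2, S452A 1) and T cell markers at -0.47 to 0.07 (S452A 3, WT 2). Resident and scavenging macrophage genes were at 0.18 to 0.46, glycolysis and hypoxia genes at 0.18 to 0.39 and Toll-like receptor pathway genes at 0.07 to 0.22. Interferon-induced genes were at 0.02 to 0.13, MHC class II genes at -0.24 to -0.07, mitochondrially encoded genes at -0.29 to -0.07 and cell cycle genes at -0.36 to -0.18.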
